A study of Homo sapiens with 12 samples.

Results

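The genes described here are 10 components of the transforming growth factor beta (TGF-beta) and bone morphogenetic protein (BMP) pathways. They were chosen by their symbols, with earlier results of these data known, from the 60664 genes of the deposited table. Shares of these genes set beside shares of all genes are therefore descriptions only. They comprise the ligands TGFB1, TGFB2 and BMP4, the receptors TGFBR1 and TGFBR2, the signal transducer SMAD3, and the inhibitors SMAD6, SMAD7, SKIL and BAMBI. All 10 had exactly 1 entry in the table and all 10 passed the filter on low counts. Messenger RNA was sequenced from wild-type MDA-MB-231, a line of human triple-negative breast cancer cells that grows with a mesenchymal shape, with no transgene or drug in any group. Cultures grown in medium of pH 7.4 with 10% fetal bovine serum were washed and given fresh medium at 1 of 3 acidities (pH 7.4, pH 6.9 or pH 6.4), and RNA was taken 24 h later, giving 4 libraries per medium. The sample labels give pH 6.9 for the intermediate medium and the treatment text gives pH 6.7, and the name pH 6.9 is used here. The title of the study places the comparison in a question about how acidity affects the spread of cancer cells. The labels number the libraries as repeats without saying that these were separate cultures, so p-values measure the spread between these samples, which may be technical.

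TGF-beta ligands are secreted in a latent complex and, once freed, bind the type II receptor TGFBR2, which recruits and phosphorylates the type I receptor TGFBR1. The active receptor phosphorylates SMAD2 and SMAD3, which bind SMAD4 and enter the nucleus, while BMP ligands signal through their own receptors to SMAD1, SMAD5 and SMAD9. Both branches induce their own inhibitors, and in breast cancer TGF-beta is known both for halting the growth of epithelial cells and for promoting invasion by mesenchymal ones.

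Total counts per library were between 21060767 and 50643233. Repeat 1 at pH 7.4 had 17841 detected genes and repeat 2 at pH 6.9 had 21628, while the other 10 libraries had 23113 to 27384. On the first principal component of all tested genes, which held 51.8% of the variance, repeat 1 at pH 7.4 lay apart from the other 11, and repeat 3 at pH 6.4 lay among the less acidic libraries on the second, away from the other 3 at pH 6.4. Values without the 2 libraries with the fewest genes and this repeat 3 are given below as values without the 3 libraries that stand apart. The expected markers of the line were high, with VIM at 1580 to 2820 CPM (counts scaled to a common library total by the TMM method) and CD44 at 654 to 1450. The hormone receptor genes ESR1 and PGR were at most 0.278 and 0.0236 CPM and CDH1 at most 3.16 CPM. CLDN4 and EPCAM, also listed among genes expected near 0, were at 88.1 to 113 and 14.8 to 24.3 CPM. The summed level of 6 fibroblast markers went from 55 to 92.2 CPM at pH 7.4 to 44.4 to 67 at pH 6.9 and 25.3 to 38 at pH 6.4. Within that list DCN was at 0 in 9 of 12 libraries, PDGFRA was at most 0.388 CPM, and COL1A2 ranged from 11.6 to 54.3 CPM. PDGFRB ranged from 7.16 to 22.8 CPM, LUM from 1.56 to 12 and FAP from 1.11 to 3.52. Of 4 immune markers, CD3E was at 0 in all 12 libraries and CD14 was at 1.37 to 6.12 CPM. The sum of the 4 was 3.72 to 6.62 CPM at pH 7.4, 3.29 to 5.14 at pH 6.9 and 1.58 to 2.88 at pH 6.4. The 4 endothelial markers summed to 6.29 to 13.2, 5.24 to 8.64 and 6.97 to 9.8 CPM in the same order. Among them CDH5 was at 0 in 6 libraries and PECAM1 was at 4.9 to 12.4 CPM. The part of these markers in the results below was not tested.

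Between pH 7.4 and pH 6.4, SMAD3 and TGFB1 messenger RNA rose and BMP4, BAMBI and SMAD6 fell. SMAD3 rose 2.08-fold, BMP4 fell 2.49-fold and BAMBI fell 2.29-fold, each without overlap between the libraries of the media. TGFB1 rose 1.61-fold and SMAD6 fell 1.84-fold with overlapping libraries. TGFB2, TGFBR1, TGFBR2, SMAD7 and SKIL did not pass the threshold, an adjusted p under 0.05 in edgeR's quasi-likelihood test with Benjamini-Hochberg adjustment over all 17544 tested genes, and genes that pass it are termed called. Of the 10 genes, 5 were called, where 30.3% of all tested genes were called. In the same comparison 4 of the 10 did not overlap between media, against 27.9% of all tested genes. The median log2 difference of the 10 was 0.07 and that of all tested genes was -0.00, and the median sizes without sign were 0.51 and 0.34. Without the 3 libraries that stand apart 5 of the 10 were called, where 41.8% of all tested genes were called in that fit, with log2 differences of 1.21 for SMAD3, 0.72 for TGFB1, -1.34 for BMP4, -1.10 for BAMBI and -1.25 for SMAD6. RNA from bulk culture does not tell a smaller share of cells expressing a gene from less RNA per cell.

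**Figure D1:**
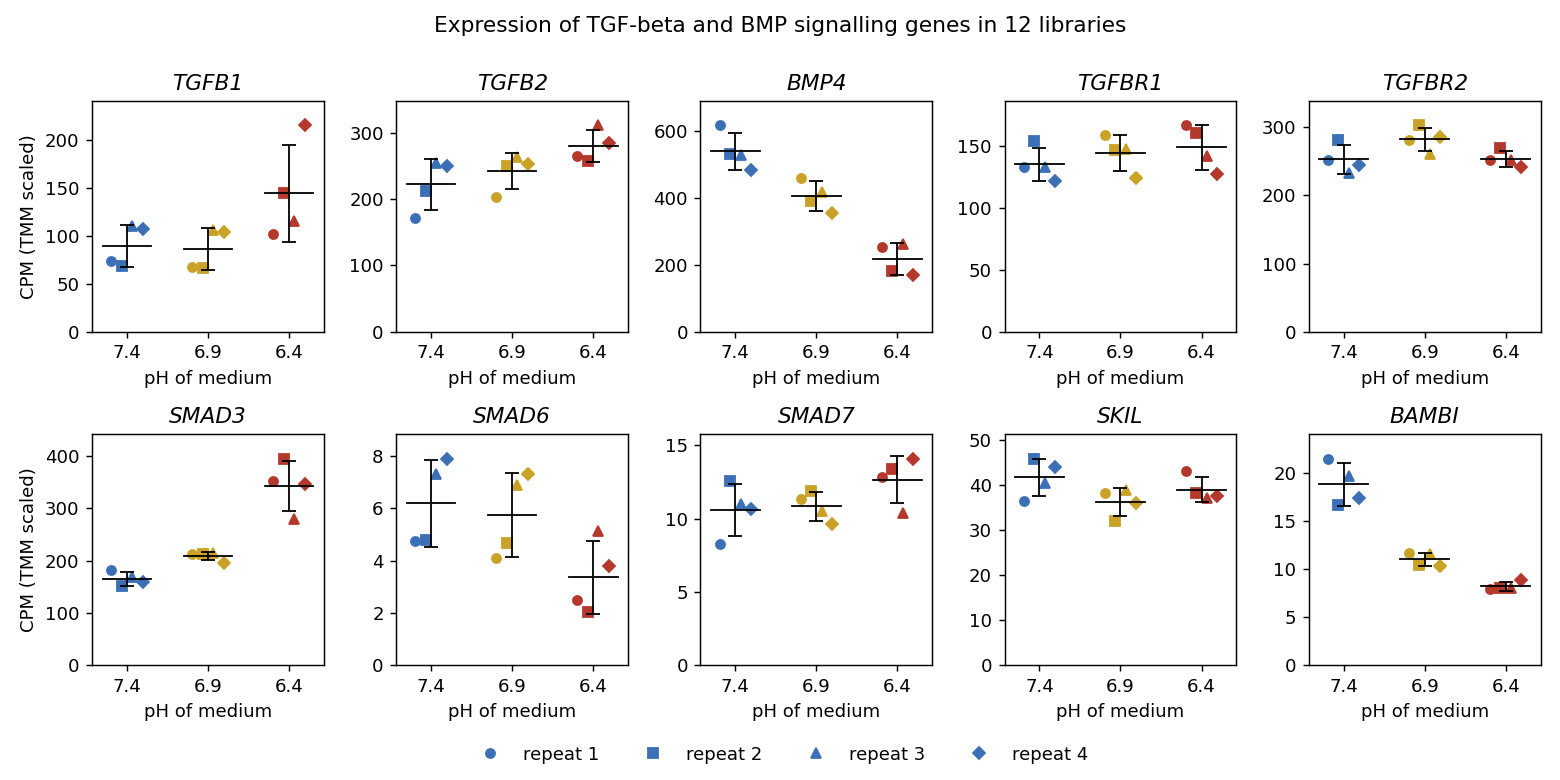
Level of each of the 10 genes in each library, as TMM-scaled CPM on a linear axis that starts at 0, with the pH of the medium on the horizontal axis. Marker shapes give the repeat number, and the horizontal line and bars give the mean ± SD of 4 libraries; SMAD3 is higher and BMP4 and BAMBI are lower in all 4 libraries at pH 6.4 than in any at pH 7.4.

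Sequences upstream of 4 of these genes are shown because their messenger RNA moved most clearly (BAMBI, BMP4, SMAD3) or because the window holds the full SMAD palindrome (SMAD6). They come from RefSeq on GRCh38.p14, in which all 10 genes matched, and each window runs from 250 bases before to 50 bases after an annotated start of transcription. Where a gene has several windows, the one nearest the start of its GENCODE model is shown. BMP4 has 3 windows and SMAD3 has 5, and the start sites of those shown lie 3711 and 1839 bases from the start of the GENCODE model. Capitals mark matches on either strand to 3 short sequences that SMAD proteins are known to bind, namely the palindrome GTCTAGAC, the SMAD box CAGAC, which reads GTCTG on the other strand, and the GC-rich element GGCGCC. A palindrome contains no complete SMAD box, and the GC-rich element overlaps neither of the others in these windows. The AP-1 site TGACTCA, which reads TGAGTCA on the other strand, was searched as well and occurs in none of the 4. The BAMBI window lies at chr10:28677271-28677570 on the plus strand, the BMP4 window at chr14:53955001-53955300 on the minus strand, the SMAD3 window at chr15:67065352-67065651 on the plus strand and the SMAD6 window at chr15:66701986-66702285 on the plus strand.
BAMBI: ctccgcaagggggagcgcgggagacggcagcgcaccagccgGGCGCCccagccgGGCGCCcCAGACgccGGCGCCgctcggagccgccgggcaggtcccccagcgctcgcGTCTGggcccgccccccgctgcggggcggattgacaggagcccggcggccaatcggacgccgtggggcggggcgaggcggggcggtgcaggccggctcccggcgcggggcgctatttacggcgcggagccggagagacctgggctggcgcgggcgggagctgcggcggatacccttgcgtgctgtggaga
BMP4: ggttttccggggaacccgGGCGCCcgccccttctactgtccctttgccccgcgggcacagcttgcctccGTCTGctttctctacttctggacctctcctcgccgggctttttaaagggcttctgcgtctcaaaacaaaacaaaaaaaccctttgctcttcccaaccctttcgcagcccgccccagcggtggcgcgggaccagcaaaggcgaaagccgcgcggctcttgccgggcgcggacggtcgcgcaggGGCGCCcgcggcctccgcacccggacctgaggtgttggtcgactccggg
SMAD3: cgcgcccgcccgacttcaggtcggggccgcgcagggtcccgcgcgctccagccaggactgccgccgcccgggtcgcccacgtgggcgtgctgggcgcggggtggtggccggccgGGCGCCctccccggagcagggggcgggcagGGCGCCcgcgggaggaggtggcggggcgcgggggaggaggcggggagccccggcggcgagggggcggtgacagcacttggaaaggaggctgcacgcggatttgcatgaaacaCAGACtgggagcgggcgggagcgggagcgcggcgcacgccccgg
SMAD6: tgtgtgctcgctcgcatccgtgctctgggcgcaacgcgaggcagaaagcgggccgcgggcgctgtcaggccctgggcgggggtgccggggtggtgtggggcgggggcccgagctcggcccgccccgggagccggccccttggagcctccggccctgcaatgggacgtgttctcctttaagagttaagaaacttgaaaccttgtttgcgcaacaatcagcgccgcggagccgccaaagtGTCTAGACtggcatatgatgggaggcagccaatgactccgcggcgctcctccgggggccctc

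The BAMBI window holds 3 copies of GGCGCC and 2 SMAD boxes, the BMP4 window 2 and 1, and the SMAD3 window 2 and 1. That of SMAD6 holds the palindrome, which begins at position -12 relative to the start site, and neither of the other elements. The windows of BMP4 and SMAD3 that are not shown hold no GGCGCC, and 1 of those of SMAD3 holds an AP-1 site. Over the 35116 promoter windows of the same length, the palindrome was present in 0.202%, the SMAD box in 45.3%, the GC-rich element in 19.2% and the AP-1 site in 4.95%. Taking 1 window for each of the 10 genes, the counts were 1, 7, 4 and 1 in the same order. GC content was 80% for BAMBI and 80.3% for SMAD3, 68% for SMAD6 and 66% for BMP4, against a median of 58.7% over all windows. A match of letters is a description of the sequence and not of binding.

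Among the ligands, TGFB1 (ENSG00000105329) encodes the most widely expressed TGF-beta and lies at chr19:41301587-41353911 on the minus strand of GRCh38. Its level at pH 7.4 was 73.8, 68.2, 110.1 and 107 CPM in repeats 1 to 4, with a mean of 89.9 ± 21.9 (SD, n = 4). At pH 6.9 the libraries held 67.4, 66.5, 107 and 104 CPM, and at pH 6.4 they held 102, 145, 116 and 216. Repeats 1 and 2 were lower than repeats 3 and 4 at both pH 7.4 and pH 6.9, and at pH 6.4 only repeat 1 stayed below the highest pH 7.4 library. The rise from pH 7.4 to pH 6.4 was 0.69 on the log2 scale (SE 0.24, 95% interval 0.18 to 1.19, adjusted p = 0.0388 in edgeR). Between libraries of the same repeat number it was 0.47, 1.09, 0.07 and 1.005. The call was lost without repeat 4 at pH 6.4 (0.43, edgeR adjusted p = 0.161) and without any 1 of repeat 1 at pH 7.4 (0.0975), repeat 2 at pH 7.4 (0.109) or repeat 2 at pH 6.4 (0.0736). It was also lost without the 2 libraries with the fewest genes (0.095), with library size as the only scaling (0.0633), with no filter on low counts (0.177) and within repeats 3 and 4 (0.15), while a block for repeat number gave 0.68 with an adjusted p of 0.00327. HNRNPUL1 on the opposite strand covers 6.64% of the TGFB1 exons, which makes that portion of its counts uncertain.

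TGFB2 (ENSG00000092969, chr1:218346235-218444619, plus strand) encodes the isoform whose binding to the receptors leans on the co-receptor betaglycan. It measured 171, 211, 255 and 249.99 CPM at pH 7.4, then 203, 250.2, 263 and 252 at pH 6.9, and 265, 257, 311 and 284 at pH 6.4. All 4 libraries at pH 6.4 lay above all 4 at pH 7.4, though the lowest exceeded the highest of the neutral libraries by little. The difference of 0.33 (SE 0.12, 95% interval 0.07 to 0.59) had an edgeR adjusted p of 0.0502 and was not called, and with a block for repeat number it was called (0.35, adjusted p = 0.00211). It was called in 10 of 25 alternatives, and without the 3 libraries that stand apart it was 0.19 (0.182). TGFB2-OT1, a transcript on the same strand, covers 26.6% of the exons of TGFB2, so reads there cannot be assigned to either gene with certainty.

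BMP4 (ENSG00000125378, chr14:53949736-53958761, minus strand), a BMP ligand with roles in embryonic patterning, had the highest level per exon length of the 10 genes. Its libraries held 616, 531, 527 and 484 CPM at pH 7.4, a mean of 539 ± 55.6 (SD, n = 4). They held 461, 391, 418 and 354 CPM at pH 6.9 (mean 406 ± 44.8) and 253, 181, 263 and 169 CPM at pH 6.4 (mean 217 ± 48.2). The 3 media formed 3 separate ranges in descending order of pH. BMP4 fell by 1.32 on the log2 scale from pH 7.4 to pH 6.4 (SE 0.14, 95% interval -1.62 to -1.02, edgeR adjusted p = 3.4e-05). The call was kept in all 25 alternatives computed, with values from -1.42 to -1.21.

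Neither receptor gene was called in any of the 3 comparisons. TGFBR1 (ENSG00000106799, chr9:99104038-99154192, plus strand), the type I receptor kinase, held 133, 153, 133 and 121 CPM at pH 7.4, 158, 147, 147 and 124 at pH 6.9, and 166, 160.0, 142 and 127 at pH 6.4. The media overlapped, and the log2 difference of 0.14 between pH 6.4 and pH 7.4 had a 95% interval of -0.08 to 0.36 (edgeR adjusted p = 0.345). TGFBR2 (ENSG00000163513, chr3:30606502-30694142, plus strand), the type II receptor that binds the ligand, held 252, 282, 232 and 244 CPM at pH 7.4 and 252, 269, 251 and 241 at pH 6.4. Its log2 difference between those media was 0.00 with a 95% interval of -0.16 to 0.17, the narrowest interval of the 10. At pH 6.9 it held 281, 303, 261 and 285 CPM, a mean of 282 ± 17.2 (SD, n = 4), and in every repeat it was higher there than at pH 7.4 or pH 6.4. The difference from pH 6.9 to pH 6.4 was called in 2 of 25 alternatives, the block for repeat number and library size as the only scaling (-0.24, edgeR adjusted p = 0.045).

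SMAD3 (ENSG00000166949, chr15:67063763-67195195, plus strand), the receptor-activated SMAD that carries much of the transcriptional response to TGF-beta, showed the clearest rise. The libraries held 182, 151, 169 and 159 CPM at pH 7.4, a mean of 165 ± 13.6 (SD, n = 4). At pH 6.9 they held 214, 212, 214 and 196 (mean 209 ± 8.46), and at pH 6.4 they held 353, 395, 279.6 and 347 (mean 344 ± 47.8). Again the 3 media formed 3 separate ranges, here in ascending order, with repeat 3 the lowest of the pH 6.4 libraries. The rise from pH 7.4 to pH 6.4 was 1.06 on the log2 scale (SE 0.10, 95% interval 0.85 to 1.27, edgeR adjusted p = 1.12e-05). It was called in all 25 alternatives, with values from 0.95 to 1.21. An antisense gene, AC087482.1, covers 2% of the SMAD3 exons.

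SMAD6 (ENSG00000137834, chr15:66702228-66782848, plus strand) encodes the inhibitory SMAD that acts mainly on the BMP branch and lies next to SMAD3 on chromosome 15. Its levels were low, at 4.76, 4.78, 7.31 and 7.89 CPM at pH 7.4, 4.1, 4.66, 6.89 and 7.32 at pH 6.9, and 2.51, 2.03, 5.14 and 3.8 at pH 6.4. Within each medium repeats 3 and 4 were above repeats 1 and 2, and only the 5.14 CPM of repeat 3 at pH 6.4 overlapped the pH 7.4 libraries. SMAD6 fell by 0.88 on the log2 scale from pH 7.4 to pH 6.4 (SE 0.30, 95% interval -1.51 to -0.24, edgeR adjusted p = 0.0368), by 0.92, 1.24, 0.51 and 1.05 in repeats 1 to 4. A block for repeat number gave -0.92 with an adjusted p of 0.000685. Leaving out repeat 2 at pH 6.4 ended the call (-0.69, adjusted p = 0.112), as did leaving out repeat 3 or 4 at pH 7.4 (-0.79 and -0.73) or repeat 1 or 4 at pH 6.4 (-0.75 and -0.94), with adjusted p-values from 0.0575 to 0.106. Within repeats 3 and 4 alone it was -0.75 (0.0566), and with only the 2 media in the fit it was -0.87 (0.0587).

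SMAD7 (ENSG00000101665, chr18:48919853-48952052, minus strand), the inhibitory SMAD that blocks the TGF-beta receptor, held 8.24, 12.5, 11 and 10.6 CPM at pH 7.4, 11.4, 11.9, 10.5 and 9.61 at pH 6.9, and 12.8, 13.4, 10.4 and 14.1 at pH 6.4. The media overlapped, and the log2 difference between pH 6.4 and pH 7.4 was 0.25 (95% interval -0.06 to 0.57, edgeR adjusted p = 0.207). SKIL (ENSG00000136603, chr3:170357678-170396835, plus strand) encodes SnoN, a nuclear repressor of SMAD complexes. It held 36.5, 45.9, 40.6 and 44.1 CPM at pH 7.4, 38.2, 32.1, 39.1 and 36 at pH 6.9, and 43.2, 38.3, 37.2 and 37.6 at pH 6.4. Its libraries overlapped as well, with a log2 difference of -0.10 (95% interval -0.31 to 0.11, edgeR adjusted p = 0.493) between pH 6.4 and pH 7.4.

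BAMBI (ENSG00000095739, chr10:28677342-28682939, plus strand) encodes a pseudoreceptor that resembles a type I receptor without the kinase and dampens both branches. Its libraries held 21.5, 16.6, 19.7 and 17.4 CPM at pH 7.4, a mean of 18.8 ± 2.21 (SD, n = 4). At pH 6.9 they held 11.6, 10.5, 11.6 and 10.4 (mean 11.01 ± 0.682), and at pH 6.4 they held 7.9, 8, 8.01 and 8.91 (mean 8.20 ± 0.470). The 3 ranges did not touch, and the largest step lay between pH 7.4 and pH 6.9. BAMBI fell by 1.20 on the log2 scale from pH 7.4 to pH 6.4 (SE 0.12, 95% interval -1.45 to -0.95, edgeR adjusted p = 1.86e-05), and all 25 alternatives kept the call with values from -1.28 to -1.10.

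**Figure D2:**
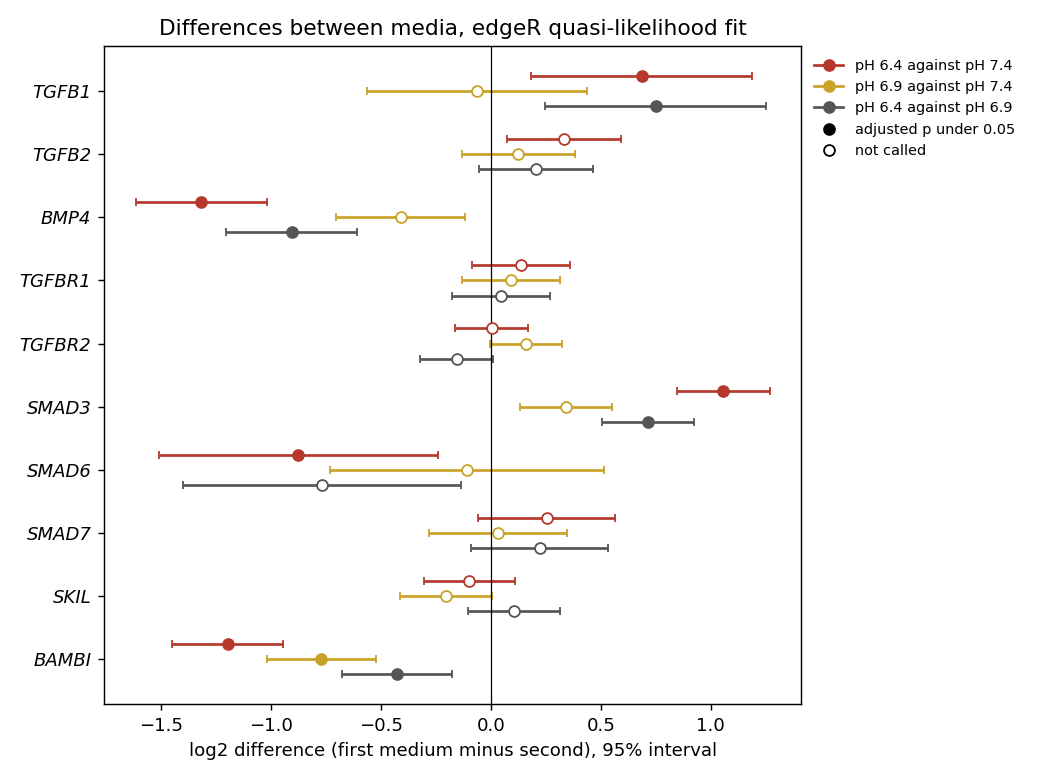
Log2 difference between media for each of the 10 genes, the first medium named minus the second, with 95% intervals from edgeR's quasi-likelihood fit. Filled points have an adjusted p under 0.05; BAMBI is filled in all 3 comparisons, while SMAD3, BMP4 and TGFB1 are filled only where pH 6.4 is compared.

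Between pH 7.4 and pH 6.9, BAMBI was the 1 gene of the 10 that was called, where 0.724% of all tested genes were called. It fell 1.71-fold, by 0.77 on the log2 scale (SE 0.12, 95% interval -1.02 to -0.52, edgeR adjusted p = 0.00532). Without the 2 libraries with the fewest genes the difference was -0.68 with an adjusted p of 0.0605, and within repeats 1 and 2 or repeats 3 and 4 alone it was -0.78 and -0.76 with adjusted p-values of 0.232 and 0.318. Without the 3 libraries that stand apart it was -0.67 (edgeR adjusted p = 0.037). SMAD3 and BMP4 also had no overlap between these media, which made 3 of the 10 against 10.1% of all tested genes. The SMAD3 difference was 0.34 (95% interval 0.13 to 0.55, edgeR adjusted p = 0.135) and that of BMP4 was -0.41 (95% interval -0.70 to -0.12, edgeR adjusted p = 0.213). With a block for repeat number both were called, SMAD3 at 0.34 (adjusted p = 0.0461) and BMP4 at -0.41 (adjusted p = 0.0125), which raised the count from 1 to 3, while the share called over all tested genes went from 0.724% to 5.4%. In the block without the 2 libraries with the fewest genes neither was called, SMAD3 at 0.40 (edgeR adjusted p = 0.184) and BMP4 at -0.45 (0.104), and the count was 1 again. The other 7 genes differed by between -0.20 (SKIL) and 0.16 (TGFBR2), all with edgeR adjusted p-values of at least 0.441. TGFB1 differed by -0.06 with a 95% interval of -0.56 to 0.44.

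Between pH 6.9 and pH 6.4, TGFB1 and SMAD3 rose and BMP4 and BAMBI fell. That was 4 of the 10 genes, where 17% of all tested genes were called. The comparison shares its libraries with the others, so its values are given beside them and not as a separate test of the same change. SMAD3 rose 1.64-fold (log2 0.72, SE 0.10, edgeR adjusted p = 0.0018) and BMP4 fell 1.87-fold (log2 -0.91, SE 0.14, adjusted p = 0.00287). BAMBI fell 1.34-fold (log2 -0.43, SE 0.12, edgeR adjusted p = 0.0246), and the call was lost without any 1 of repeats 1 and 3 at pH 6.9 or repeats 1 and 2 at pH 6.4, where the values were -0.40, -0.40, -0.41 and -0.41 with adjusted p-values of 0.0711, 0.0693, 0.0617 and 0.075. These 3 genes had no overlap between the media, as had 20.4% of all tested genes. TGFB1 rose 1.68-fold with overlapping libraries (log2 0.75, SE 0.24, edgeR adjusted p = 0.0422), and without repeat 4 at pH 6.4 the value was 0.49 with an adjusted p of 0.169. The TGFB1 call was kept in 14 of 25 alternatives and was also lost without any 1 of repeats 1, 2 and 3 at pH 6.9 or repeat 2 at pH 6.4. SMAD6 differed by -0.77 (edgeR adjusted p = 0.0891), TGFB2 by 0.21 (0.266) and TGFBR2 by -0.16 (0.186). With a block for repeat number all 3 were called, SMAD6 at -0.81 (adjusted p = 0.00317), TGFB2 at 0.21 (0.0385) and TGFBR2 at -0.15 (0.0275), which raised the count from 4 to 7, while the share called over all tested genes went from 17% to 31.1%. In the block without the 2 libraries with the fewest genes TGFBR2 was not called (-0.16, edgeR adjusted p = 0.0634), and 6 of the 10 were, where 26.7% of all tested genes were called. Within repeats 3 and 4 alone edgeR called none of the 10 and none of all 17171 tested genes. An unadjusted p under 0.05 was found in 6 of the 10 and in 3161 of all tested genes. In that fit SMAD3 and BMP4 differed by 0.63 and -0.82 with an edgeR adjusted p of 0.213 each.

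Levels were compared between genes as mean CPM per kilobase of merged exons. At pH 7.4 BMP4 stood highest at 175 (libraries 157 to 200.01), followed by TGFBR2 at 53.7 (49.4 to 59.9), TGFB2 at 43.1 (33.3 to 49.4) and TGFB1 at 27.8 (21.1 to 34). BMP4 alone of these 4 did not overlap the next below it. TGFBR1 at 19.7 (17.7 to 22.4) and SMAD3 at 18.1 (16.5 to 20) came next and overlapped each other, and TGFB1 overlapped TGFBR1. BAMBI stood at 8.13 (7.18 to 9.28), SKIL at 5.37 (4.69 to 5.9), SMAD7 at 2.11 (1.64 to 2.49) and SMAD6 at 0.722 (0.556 to 0.922), with no overlap between neighbours among these 4. These 4 inhibitors had the lowest levels per length. At pH 6.9 the order was BMP4 at 132, TGFBR2 at 60.0, TGFB2 at 47.0, TGFB1 at 26.6, SMAD3 at 22.9, TGFBR1 at 21.1, BAMBI at 4.76, SKIL at 4.67, SMAD7 at 2.15 and SMAD6 at 0.671. There SMAD3 stood above TGFBR1 with overlapping libraries, and BAMBI overlapped SKIL. At pH 6.4 BMP4 was at 70.3 (55 to 85.3), and its range overlapped those of TGFB2 at 54.2 (49.9 to 60.4) and TGFBR2 at 53.9 (51.3 to 57.1). TGFB1 at 44.7 (31.6 to 66.6) overlapped all 3 of them and SMAD3 at 37.7 (30.7 to 43.4), and SMAD3 now lay above TGFBR1 at 21.7 (18.5 to 24.3) without overlap. BAMBI at 3.55 (3.41 to 3.85) was then below SKIL at 5.02 (4.78 to 5.55), the reverse of their order at pH 7.4.

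**Figure D3:**
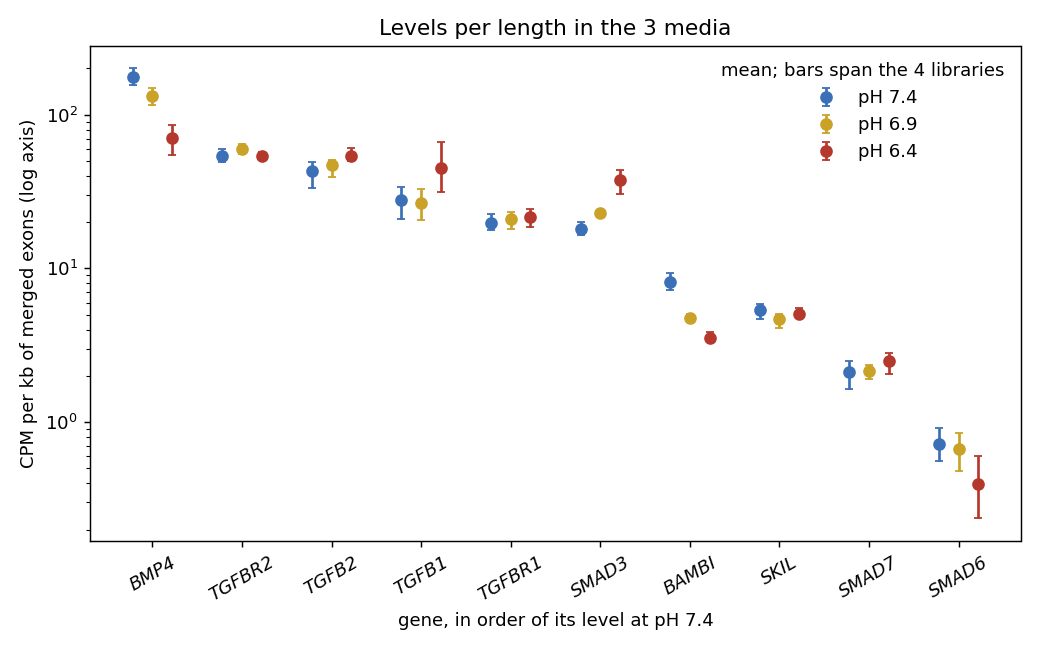
Mean level of each gene per kilobase of merged exons on a logarithmic axis, with the 3 media side by side and bars from the lowest to the highest of 4 libraries. BMP4 is highest in each medium and SMAD6 lowest, and BAMBI passes below SKIL at pH 6.4.

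For each of the 5 called genes, the genes of the most similar pattern over the 12 libraries were found by the mean absolute difference of log2 CPM after centring each gene on its own mean. The libraries are the same for both genes of a pair, so this is a description only. For BAMBI the nearest was MVK, which encodes mevalonate kinase, at 0.08 log2 units where BAMBI itself varied by 0.44. MVK went from 50.9 CPM at pH 7.4 to 31.8 at pH 6.9 and 22.5 at pH 6.4. For BMP4, which varied by 0.51, they were ZNF33B (0.08) and SEC11C (0.09), and for SMAD3, which varied by 0.39, they were DENND11 (0.09) and SPOCD1 (0.09). MIDN (0.07) and FOXC1 (0.10) lay nearest to TGFB1, which varied by 0.36, and SERTAD4-AS1 (0.12) and SURF2 (0.14) nearest to SMAD6, which varied by 0.45. SERTAD4-AS1 is an antisense gene, so the source of its counts is uncertain.

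Of 112 other pathway genes in 6 lists, also chosen with earlier results of these data known, 95 were tested. Between pH 7.4 and pH 6.4 25 of the 95 rose and 17 fell, 44.2% where 30.3% of all tested genes were called. Their median log2 difference was 0.11. Among 23 ligands and their activators 19 were tested, 4 rose and 5 fell (47.4% called), with a median of -0.02. LTBP4, one of the proteins that tether latent TGF-beta to the matrix, rose from 67.5 to 122 CPM (log2 0.86, edgeR adjusted p = 5.16e-05). THBS1, thrombospondin, an activator of latent TGF-beta, rose from 1855 to 2379 CPM (log2 0.36, edgeR adjusted p = 0.00552). The tethering proteins LTBP1 and LTBP3 rose as well, LTBP1 by 0.34 (edgeR adjusted p = 0.0076) and LTBP3 by 0.58 (0.0211).

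Of 15 receptors and co-receptors 11 were tested, 3 rose and 3 fell, with a median of 0.01. The called genes were 54.5% of the 11, where 30.3% of all tested genes were called. TGFBR3, which encodes the co-receptor betaglycan, fell from 79.8 to 43.5 CPM (log2 -0.88, edgeR adjusted p = 4.92e-05). RGMB, a BMP co-receptor, rose from 67.6 to 246 CPM (log2 1.86, edgeR adjusted p = 0.000187). The antisense gene AC008522.1 covers 40.2% of the RGMB exons, so the source of those counts is uncertain. ACVR2B, an activin receptor, rose from 9.01 to 21.8 CPM (log2 1.27, edgeR adjusted p = 0.000673), and BMPR2, the type II BMP receptor, rose by 0.26 (0.0138).

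All 12 SMADs and partners were tested, 3 rose and 0 fell, with a median of 0.24. The 3 are 25% of the list, below the 30.3% called over all tested genes. RUNX2, a transcription factor that partners SMADs, rose from 50.9 to 125 CPM (log2 1.29, edgeR adjusted p = 5.93e-06). SMAD5, a BMP-activated SMAD, rose by 0.43 (edgeR adjusted p = 0.014) and SMAD4, the common partner, by 0.32 (0.0298). Among 25 inhibitors and feedback genes 19 were tested, 4 rose and 3 fell, with a median of 0.16. The called genes were 36.8% of the 19, near the 30.3% called over all tested genes. SMURF2, a ubiquitin ligase that marks SMADs and receptors for degradation, rose from 390.4 to 561 CPM (log2 0.52, edgeR adjusted p = 0.00117), and TGIF1, a repressor of SMAD complexes, rose from 71.4 to 116 CPM (log2 0.70, 0.00141). PMEPA1, which sequesters receptor-activated SMADs and is itself induced by TGF-beta, fell from 91.1 to 56.2 CPM (log2 -0.70, edgeR adjusted p = 0.00046). FST, follistatin, which binds activins and some BMPs, fell from 94.1 to 61.4 CPM (log2 -0.62, edgeR adjusted p = 0.00271).

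Genes known to respond to TGF-beta did not all move in 1 direction. Of 26 listed 25 were tested, 9 rose and 4 fell, with a median of 0.23. The called genes were 52% of the 25, where 30.3% of all tested genes were called, 2737 higher and 2584 lower. CCN2, a matrix-associated growth regulator, rose from 319 to 667 CPM (log2 1.06, edgeR adjusted p = 0.000181), and VEGFA, the angiogenic growth factor, from 272 to 481 CPM (log2 0.82, 7.49e-05). FN1, fibronectin, rose from 864 to 1739 CPM without overlap between the libraries (log2 1.01). It was called by edgeR and in all 25 alternatives. SNAI2, a transcription factor of the mesenchymal state, fell from 53.6 to 30.4 CPM (log2 -0.82, edgeR adjusted p = 0.000214). Of 11 BMP target genes 9 were tested, 2 rose and 2 fell (44.4% called), with a median of -0.54. GATA2, a transcription factor, rose from 6.79 to 11.9 CPM (log2 0.81, edgeR adjusted p = 0.0341), and the other 3 called genes were below 5 CPM. ID1, the target of the highest mean CPM in this list, stood at 86.8 CPM at pH 7.4 and 85.2 at pH 6.4, with a 95% interval of -0.60 to 0.55 for the log2 difference. Within repeats 3 and 4 alone SNAI2, SMURF2, TGIF1, THBS1, LTBP1, LTBP3, BMPR2, SMAD4, SMAD5 and GATA2 were no longer called, and leaving out either repeat 2 or repeat 4 at pH 6.4 ended the calls of SMAD5 and GATA2. LTBP3 was called in 20 of 25 alternatives, SMAD4 in 18 and GATA2 in 17, each of them also losing the call without single libraries at pH 7.4 and pH 6.4. SMURF2, TGIF1 and FKBP1A have annotated pseudogenes. Other annotated genes overlap exons of THBS1, LTBP1, SMAD4, SMAD5, SMURF2, PMEPA1, NEDD4L, CCN2, VEGFA and FKBP1A. Any single overlapping gene covers at most 8.34% of the exons, and some of these genes have more than 1. The counts of all of them carry that uncertainty.

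**Figure D4:**
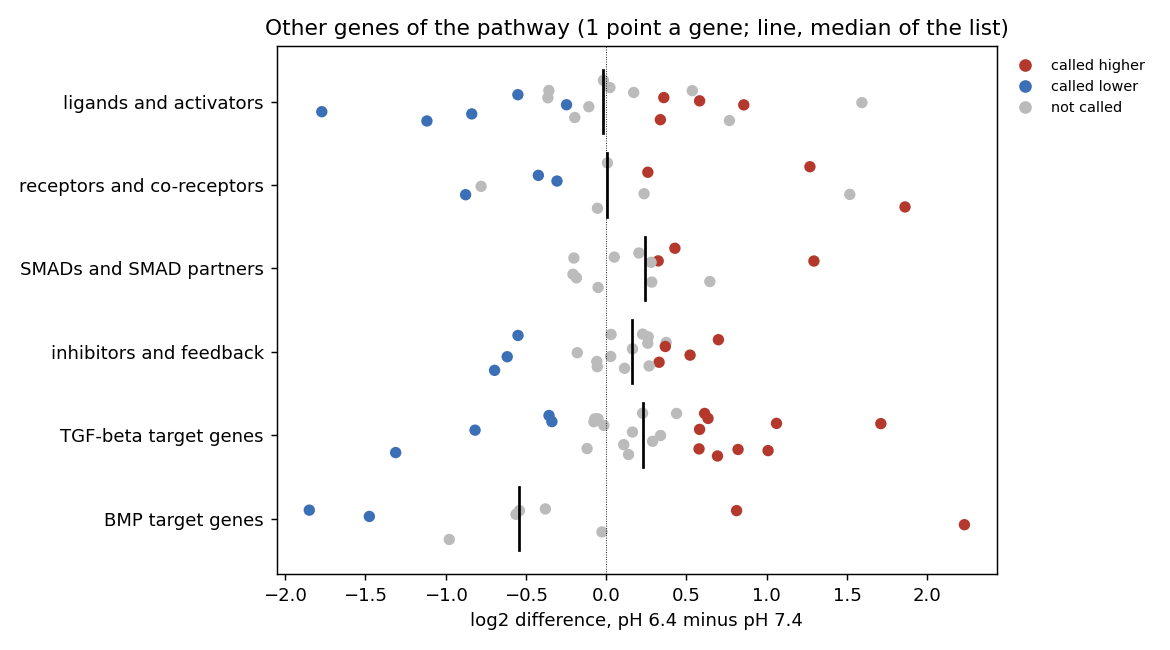
Log2 difference between pH 6.4 and pH 7.4 for the tested genes of 6 pathway lists, 1 point per gene, with a black line at the median of each list. Red points rose and blue points fell at an adjusted p under 0.05; the lists of TGF-beta targets and of ligands hold points on both sides of 0, and no SMAD or partner is blue.

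Between pH 7.4 and pH 6.9, TGFBR3 was the 1 gene of the 95 that was called. It fell from 79.8 to 50.3 CPM (log2 -0.66, edgeR adjusted p = 0.00532), and 1 of 95 is 1.05%, near the 0.724% of all tested genes. With a block for repeat number 11 of the 95 were called, where 5.4% of all tested genes were. Without the 2 libraries with the fewest genes TGFBR3 differed by -0.61 with an adjusted p of 0.08. In the other lists none was called by edgeR. Of the 95 genes 22 had an unadjusted p under 0.05 in edgeR, as had 2092 of all 17544 tested genes. DESeq2 called 4 of the 95, 4.21% where it called 3.19% of all tested genes. With limma's voom 1 was called, 1.05% where 0.787% of all tested genes were. The genes of the highest mean CPM in those lists, a ranking not scaled by length, gave THBS1 0.21, FKBP1A 0.05, CCN1 0.10, RUNX1 0.15 and ID1 0.07 on the log2 scale. FN1, fibronectin, went from 864 to 1238 CPM with overlapping libraries (log2 0.52, edgeR adjusted p = 0.343). With the block for repeat number FN1 was called at 0.52 (edgeR adjusted p = 0.000771) and THBS1 at 0.21 (0.0329), and without the 2 libraries with the fewest genes the block kept the call of FN1 and not that of THBS1.

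Between pH 6.9 and pH 6.4, 17 of the 95 rose and 7 fell, 25.3% where 17% of all tested genes were called. RGMB rose by 1.40 (edgeR adjusted p = 0.00486), RUNX2 by 0.97 (0.000833) and VEGFA by 0.61 (0.00364). PMEPA1 fell by 0.60 (edgeR adjusted p = 0.00494), NEO1, a receptor that binds RGM proteins, by 0.56 (0.0113), and SNAI2 by 0.48 (0.0146). TGIF1 rose by 0.68 (edgeR adjusted p = 0.00589), LTBP4 by 0.52 (0.00502), CCN1 by 0.52 (0.0135) and NEDD4L, a ubiquitin ligase, by 0.42 (0.0157). ACVR2B rose by 0.75 (edgeR adjusted p = 0.0269), SMAD5 by 0.44 (0.0234), SMURF2 by 0.35 (0.0233), SMAD4 by 0.33 (0.0445) and GATA2 by 0.83 (0.048), and SMAD4 and GATA2 kept the call in only 9 and 10 of 25 alternatives. ACVR2B, SMAD5, SMURF2, NEDD4L, CCN1 and SNAI2 also lost it without repeat 2 at pH 6.4. Within repeats 3 and 4 alone edgeR called none of the 95 and none of all 17171 tested genes. An unadjusted p under 0.05 was found in 24 of the 95 and in 3161 of all tested genes.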

How the data were processed

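Poly(A)-selected RNA of 12 libraries, 4 for each of 3 media, was sequenced after a stranded preparation, per the labels' protocols. The authors deposited 1 table of raw read counts per gene. Per the submitters' processing notes, STAR and featureCounts were used with GRCh38.p13 (hg38). Their versions, the strand setting and the handling of multiply mapped reads were not given in the sources used here, so counts of overlapping, antisense or duplicated genes are uncertain. Coordinates and exon lengths come from GENCODE 29 on GRCh38.

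In R 4.3.3 with edgeR 4.0.16, filterByExpr kept 17544 genes. After TMM scaling, all 12 libraries entered a single model of medium (9 residual degrees of freedom, common biological coefficient of variation 0.198), and the robust quasi-likelihood test compared each pair of media. Genes were called where the Benjamini-Hochberg adjusted p, over all tested genes, was under 0.05. CPM are TMM-scaled. The scripts were run on simulated data with no effect of repeat number and no library that stands apart. That run does not show how the test behaves where these occur. Depth, 21060767 to 50643233 counts per library, limits precision for genes of a few CPM.

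The 10 genes and all lists were chosen with earlier results of these data known. All 10 were described. Of each pathway list, up to 4 called genes per comparison with the smallest adjusted p were named if their higher medium averaged 5 CPM or more, or, where none was called, up to 2 of the highest mean. Genes named for 1 comparison may appear in another. Some genes that this rule names are not reported here.

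Same-numbered libraries deviated together: over 9749 genes, the correlation of their deviations from the group means was 0.296 to 0.798 in all 12 pairs. Differently numbered libraries of 2 media gave -0.726 to 0.56. These were positive within repeats 1 and 2 and within repeats 3 and 4 (0.182 to 0.56), and negative in all pairs between those 2 sets. Of the 12 libraries, 9 correlated best with their own number in both other media. The pairing by number rests on these correlations and not on the labels. Alternatives covered a block for repeat number, scaling, filters, DESeq2 1.42.0, voom in limma 3.58.1, fits to 2 media, fits to fewer repeats, and each library left out. Those without the 3 libraries that stand apart, and the block without the 2 libraries with the fewest genes, were chosen after seeing the data.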

Additional observations from a re-analysis of the deposited data

Results flagged for a closer look

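In 2 of 30 groups of 4 libraries, 10 genes in 3 media, 1 library lay far from the other 3 by Dixon's test, which divides its gap to the nearest library by the whole range and uses the 95% critical value. Chance marks about 1 group in 20. SMAD3 in repeat 4 at pH 6.9 was 196 CPM where the other 3 libraries were 212 to 214, a share of 0.908. BAMBI in repeat 4 at pH 6.4 was 8.91 CPM where the other 3 were 7.9 to 8.01, a share of 0.892. In both groups the other 3 libraries lay very close together.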

How the results depend on the processing

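No called value changed sign in any alternative. Counts of called genes are given here for the 10 genes, the 95 other pathway genes and all tested genes, in that order, in edgeR unless another tool is named. Between pH 6.4 and pH 7.4 they were 5, 42 and 5321, and within repeats 3 and 4 alone 3, 13 and 1528. Between pH 6.9 and pH 7.4 they were 1, 1 and 127. The block for repeat number gave 3, 11 and 947, a fit to only the 2 media 2, 2 and 250, and the fit without the 2 libraries with the fewest genes 0, 0 and 20. Within repeats 1 and 2 they were 0, 0 and 7, and within repeats 3 and 4 they were 0, 0 and 0. Unadjusted p-values under 0.05 numbered 3, 15 and 1385 without those 2 libraries. Within repeats 1 and 2 they numbered 3, 17 and 1788, and within repeats 3 and 4 they numbered 2, 17 and 1194. For the 95 and for all genes, no filter gave 2 and 201, DESeq2 4 and 559, the fit without the 3 libraries that stand apart 3 and 69, and the block without the 2 libraries with the fewest genes 5 and 194 (1 of the 10). Between pH 6.4 and pH 6.9 the counts were 4, 24 and 2988. The block gave 7, 44 and 5456, and within repeats 3 and 4 they were 0, 0 and 0 (6, 24 and 3161 at an unadjusted p under 0.05). No filter gave 2 of the 10 and 2495 of all genes. The fit without the 3 libraries that stand apart gave 40 of the 95 and 6112 of all genes, the block without the 2 libraries 4745 (6 of the 10) and repeats 1 and 2 alone 1906 of all genes. With 1 library left out the ranges were 3 to 6, 27 to 43 and 3795 to 6411 for pH 6.4 against pH 7.4, 1 to 2, 1 to 3 and 39 to 306 for pH 6.9 against pH 7.4, and 2 to 5, 8 to 37 and 1171 to 4944 for pH 6.4 against pH 6.9. The lowest counts for pH 6.4 came without repeat 2 at pH 6.4 in each of the 3 sets, and 39 came without repeat 3 at pH 7.4. Against pH 7.4 the lowest counts of 3 and 27 also came without repeat 4 at pH 6.4. Against pH 6.9 the lowest count of 2 also came without repeat 1 or repeat 3 at pH 6.9. Fits to fewer samples have fewer residual degrees of freedom, and otherwise the cause was not tested. The block for repeat number changed no other call among the 10 genes than those named in the report.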
